A study of Oryza sativa with 3 samples.

Results

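Leaves of B10201 and B10301, a pair of rice lines that both carry an OsEBS transgene, were compared with each other, and the genes whose signals lay at least 2-fold apart were described. The genes were selected from the difference in log2 signal, B10301 minus B10201, and 485 of 11900 measured genes (4.08%) met the threshold, with 334 lower in B10301 (2.81%) and 151 higher (1.27%). Each group was 1 array of leaf RNA pooled from 10 untreated plants aged 6 weeks. The control was wild-type Guichao2, an indica cultivar, and the lines were OsEBS-transgenic plants in the Guichao2 background, all grown in a greenhouse at 28 °C under 14 h light and 10 h dark. OsEBS is known as a rice gene of biomass and spikelet number whose product resembles Hsp70 chaperones. The labels state neither the promoter of the transgene nor how the lines were derived from each other, and signals of OsEBS itself are not reported here.

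With 1 array a side no difference has a replicate check, so there is no test and no p-value below, and higher and lower describe measured signals. The same difference chose the genes, so counts and medians over them describe the choice and support nothing further. The control array served to show which line lay away from it. Both lines are set against that 1 array, so an error on it enters both comparisons. In pooled leaf RNA, fewer cells of a type and less RNA per cell cannot be told apart.

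Many genes named below respond to environmental signals. DREB1 factors, also called CBF, are transcription factors of the AP2 family that are known to be switched on quickly by cold and to activate genes with a drought-responsive element. JAZ proteins repress jasmonate responses, and their own transcripts are known to accumulate soon after wounding or jasmonate treatment. Calmodulin-like proteins bind calcium ions and relay calcium signals to other proteins.

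The B10301 column could not be used whole. In 2 stretches of 6717 and 988 probe sets its values stood 1 row above the probe set they belonged to, and these were left out with a margin of 20 rows at each end. Inside the longer stretch the mean of the other arrays correlated with B10301 across probe sets at 0.397 before the values were moved back and at 0.939 afterwards, and in the shorter one at 0.0512 and 0.823. Signals below a floor of 5.45 on the log2 scale, the median of all signals, were raised to it, so a difference from a gene at the floor is a lower bound. Of the 485 genes, 113 had a line at the floor. Of 3 leaf markers 2 were above the floor, and RBCS1 was not. The Rubisco small subunit OsrbcS was at log2 signals of 15.09 in the control, at 15.34 in B10201 and at 15.43 in B10301. Of the genes listed as markers of other organs, 0 of 1 for root, 2 of 4 for seed, 5 of 11 for flower and 2 of 9 for meristem were above the floor. The summed linear signal of the leaf markers was 78250 on the control array, 90327 for B10201 and 106424 for B10301, and that of the seed markers 6483, 6008 and 7464. That of the floral markers was 3296 on the control array, 2510 on that of B10201 and 2531 on that of B10301, and that of the meristem markers 477, 681 and 579. Their part in the differences was not tested.

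B10201 was more often the line that lay away from the control. Among the 334 genes lower in B10301, B10201 alone was at least 2-fold from the control for 166 (49.7%), B10301 alone for 57 (17.1%), both in the same direction for 21, both in opposite directions for 3 and neither for 87. Over all measured genes, 9.16% departed from the control at least 2-fold in B10201 and 8.27% in B10301: 4.65% were higher and 4.51% lower in B10201, and 3.77% higher and 4.5% lower in B10301. The median log2 difference from the control over these 334 genes was 1.09 in B10201 and -0.40 in B10301. Among the 151 genes higher in B10301, B10201 alone departed for 52 (34.4%) and B10301 alone for 33 (21.9%), with medians of -0.84 in B10201 and 0.53 in B10301.

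The further apart the lines were, the more one-sided the picture became. At least 4-fold apart were 60 genes lower in B10301 and 10 higher. For 52 of the 60 (86.7%) B10201 alone departed from the control, against 2 for B10301 alone, and the control lay nearer to B10301 for 58 of them (96.7%). Over all measured genes the control lay nearer to B10301 for 5946. The median log2 difference from the control over the 60 genes was 2.72 in B10201 and 0.00 in B10301. For 12 of the 60 both the control and B10301 were at the floor, so the difference between those arrays was set to 0 and the gene was kept only through B10201. In the upper 2 of 5 groups of genes by mean signal, with 0 genes at the floor in a line, 13 genes were at least 4-fold lower in B10301 and B10201 alone departed for 11 of them.

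**Figure D1:**
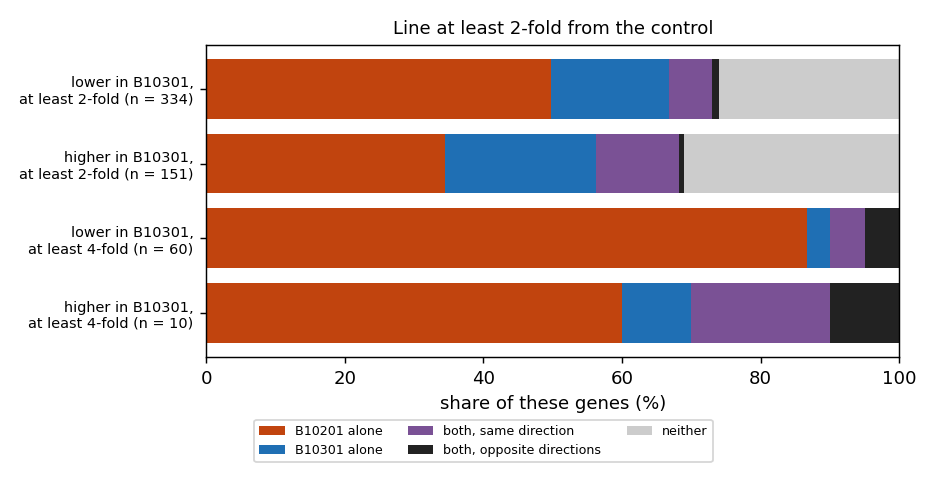
Share of genes (x axis, percent) by which line was at least 2-fold from the control, for genes lower or higher in B10301 at 2-fold and 4-fold between the lines. B10201 alone takes 49.7% of the 334 genes at least 2-fold lower in B10301 and 86.7% of the 60 genes at least 4-fold lower.

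**Figure D2:**
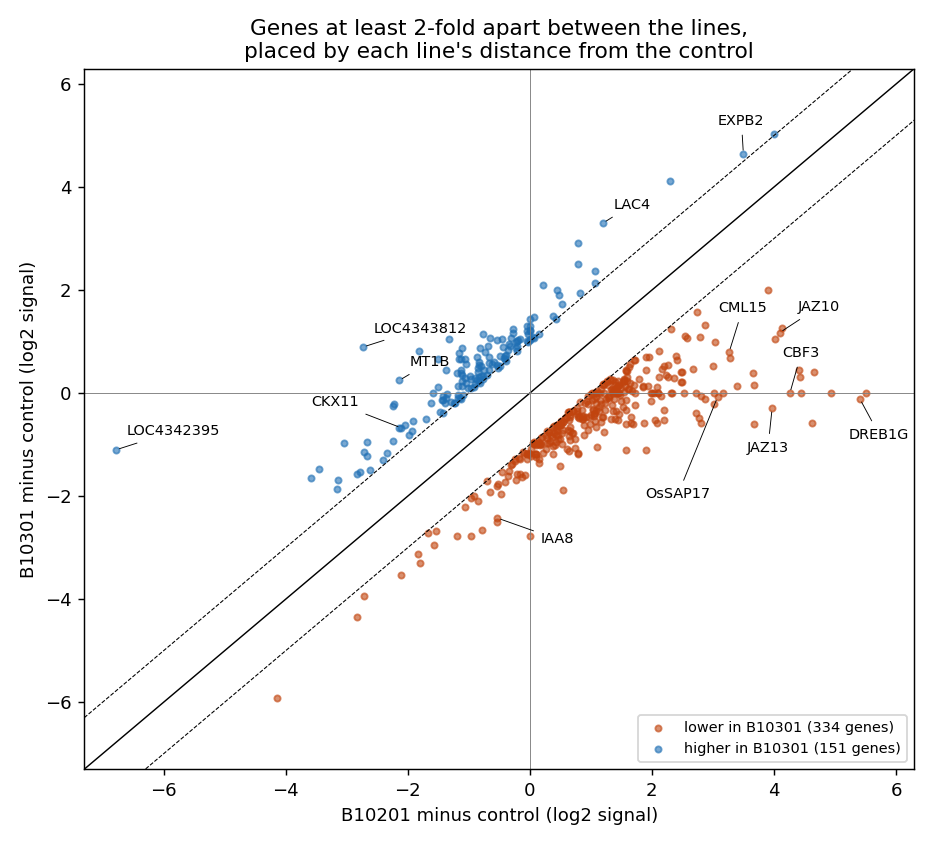
Log2 difference from the control in B10201 (x axis) and in B10301 (y axis) for the 485 genes at least 2-fold apart between the lines. The solid line marks equal differences, the dashed lines 2-fold between the lines, which the choice of genes fixes. A band of genes lower in B10301 runs along the horizontal zero line out to DREB1G at 5.41 in B10201 and -0.11 in B10301.

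More probe sets were lower than higher in B10301 at each level of signal, and the excess was proportionally larger among brighter ones. The share of probe sets apart was not even either. Of all probe sets kept, 6.02% were at least 2-fold apart, 2.43% higher and 3.6% lower in B10301, while 11.0% lay at least 2-fold from the control for B10201 and 10.3% for B10301. The 22772 probe sets kept were divided by mean signal into 5 groups of like size. In the dimmest group 14.0% were at least 2-fold apart, 340 lower and 297 higher in B10301. In the brightest group 1.32% were apart, 48 lower and 12 higher. The groups between, from dim to bright, held 248 lower and 188 higher, 117 and 42, and 66 and 14. The SD of the difference over probe sets was 0.69 in the dimmest and 0.30 in the brightest group, so a 2-fold difference stands out less from that spread in a dim gene than in a bright one. Among genes in the upper 2 of 5 such groups, 87 were lower in B10301 and 13 higher, and B10201 alone departed for 47 of the 87 (54.0%). Over all 11900 genes the SD of the difference was 0.46 between the lines, 0.67 between B10201 and the control and 0.62 between B10301 and the control.

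Where a gene had a further probe set, the further one mostly had the same direction. For 47 of the 485 genes there were 49 further probe sets above the floor, of which 40 (81.6%) shared the sign of the leading one, 20 were at least 2-fold apart in the same direction and 0 were at least 2-fold apart in the opposite one. Over all 1704 measured genes with further probe sets, 57.4% shared the sign. JAZ10 differed by -2.92 and -2.79 on its probe sets, OsWRKY71 by -2.72 and -2.43 and OsC3H33 by -1.71 and -2.02. Against this, CML27 (-1.13 and 0.25) and HOX7 (1.20 and -0.04) disagreed in sign. These probe sets share the RNA and the array, so they check the probes and not the plants.

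Of the 485 genes, 75 carry a readable symbol, 58 of them lower in B10301 and 17 higher, out of 1684 measured genes with a symbol (4.45% in all, 3.44% and 1.01% by direction). The others carry only a locus number, without a stated function. Of the 58 lower in B10301, B10201 alone departed from the control for 32 and B10301 alone for 9. Over all genes with a symbol 9.32% departed at least 2-fold in B10201 and 7.9% in B10301.

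Among genes with a symbol, DREB1G, a cold-response transcription factor of the DREB1 branch, stood furthest apart. DREB1G had log2 signals of 5.86 in the control, at 11.26 in B10201 and at 5.74 in B10301, which made it 45.9-fold lower in B10301. CBF3, which the gene table also lists as DREB1A, reached 9.71 in B10201 and lay at the floor on the B10301 and control arrays, so it was at least 19.2-fold lower in B10301. For both genes B10201 alone was high and the other arrays were at or near the floor. The DREB2 genes, of a branch linked to drought and heat, did not share this. DREB2A was at 6.20 in the control, at 6.46 in B10201 and at 7.03 in B10301, and DREB2D at the floor, 6.25 and 5.76. In all, 2 of 4 measured DREB genes were at least 2-fold lower in B10301 and 0 higher, beside 2.81% and 1.27% over all measured genes. The list median was -2.38, against 0.03 over all measured genes. With 4 genes that median falls between CBF3 and DREB2D, and CBF3 was kept only through its B10201 signal.

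Some JAZ repressors were also high in B10201. JAZ13 had log2 signals of 7.67 in the control, at 11.64 in B10201 and at 7.38 in B10301, 19.2-fold lower in B10301. JAZ12, its neighbour among the measured genes of chromosome 10, was at 11.14, 12.73 and 11.37, a difference of -1.36. JAZ10, on an s_at probe set that may also detect related transcripts, was at 9.14, 13.23 and 10.31, so both lines were above the control and B10201 by more. The other measured members of the jasmonate list differed between the lines by -0.92 (OPR12) to 0.44 (OPR-1), and the member nearest 0 was JAZ7, a bright gene at 14.52, 14.69 and 14.68. Of 27 measured genes of jasmonate synthesis and JAZ repressors, 3 were at least 2-fold lower in B10301 and 0 higher, beside 2.81% and 1.27% over all measured genes. The list median was -0.11.

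Several calmodulin-like genes were lower in B10301. CML31 was at 7.47 in the control, at 10.25 in B10201 and at 6.99 in B10301, and CML15 at 7.33, 10.60 and 8.13. The brighter CML16 (11.58, 13.10 and 11.32) and CML18 (10.87, 12.17 and 10.82) had the same order with smaller gaps. In each of these B10201 was at least 2-fold above the control and B10301 was not 2-fold from it. Of 23 measured calmodulin-like genes and calcium sensors 6 were at least 2-fold lower in B10301 and 0 higher, beside 2.81% and 1.27% over all measured genes, with a median of -0.13. The member nearest 0 was CBL4 (7.62, 7.34 and 7.35). Of 33 calcium-dependent and CBL-interacting kinases, which act on calcium signals, 1 was at least 2-fold lower, CPK20 (10.58, 11.63 and 10.46), and the median was -0.04. CPK23, of the same list but inside a displaced stretch, was at least 2-fold higher in B10301 and is given below.

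The list of stress-associated zinc finger genes also took in CCCH zinc finger genes (OsC3H symbols), whether or not these are linked to stress. It held 4 of 45 measured members at least 2-fold lower in B10301 and 0 higher, beside 2.81% and 1.27% over all measured genes. The list median was -0.03. OsSAP17, of a family with A20 and AN1 zinc fingers, was at 7.92 in the control, at 11.00 in B10201 and at 7.84 in B10301. ISAP1, a member of that family first described as induced by stress, was at 10.14, 12.38 and 10.49, and OsSAP11 at 7.18, 8.53 and 7.26. OsC3H33, named for its CCCH zinc fingers (x_at probe set), was at 12.42, 14.00 and 12.29. For all 4, B10301 was close to the control and B10201 above both.

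WRKY factors, many of which regulate defence, gave a mixed picture. OsWRKY71, known as a repressor in gibberellin and defence signalling, was at 10.54 in the control, at 12.73 in B10201 and at 10.01 in B10301, so B10201 stood out. OsWRKY76 was at 10.22, 9.31 and 8.23, and OsWRKY24 at 9.68, 9.86 and 8.68, so in these B10301 was the low array. Of 6 measured WRKY genes 3 were at least 2-fold lower in B10301 and 0 higher, beside 2.81% and 1.27% over all measured genes. The list median was -0.95, and WRKY9 (9.83, 9.88 and 9.90) was the member nearest 0.

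Single regulators joined them. ABA8OX1, an abscisic acid 8'-hydroxylase that breaks this hormone down, was at 9.02 in the control, at 11.74 in B10201 and at 8.63 in B10301, 8.62-fold lower in B10301. The MYB factors LTR1, also listed as MYB4, and MYB2, both linked to cold or salt tolerance, were at 8.23, 10.22 and 8.08 and at 7.72, 9.17 and 7.21. Picked after their values were seen, the MAP kinase gene BIMK1, also listed as MPK3, was at 10.39, 11.46 and 10.01, and CIGR1, a GRAS-family gene named for induction by chitin and gibberellin, at 10.32, 11.48 and 10.39. In each of these 5 genes B10201 was the high array and B10301 within 2-fold of the control.

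Protein phosphatases 2C split by line. Several of this family restrain abscisic acid signalling, but its members stood on the abscisic acid list by symbol, without regard to such a role. Of 58 genes on the abscisic acid list 6 were at least 2-fold lower in B10301 and 0 higher, beside 2.81% and 1.27% over all measured genes. The list median was 0.00. OsPP2C01 was high in B10201 (9.40 in the control, at 11.31 in B10201 and at 10.10 in B10301). OsPP2C61 was low in B10301 (9.42, 9.19 and 7.73). In OsPP2C32 the control lay between the lines at 9.75, with 10.54 in B10201 and 8.57 in B10301. OsPP2C69 did likewise, nearer the floor, at 6.06, 6.98 and 5.59. Glutaredoxins split in the same manner, with GRXS5 (10.00, 11.36 and 9.66) and GRXS9 (11.52, 12.89 and 11.56) high in B10201 and GRXS1 (7.90, 7.44 and 5.95) low in B10301, the 3 of 30 genes on the glutathione transferase and redoxin list at least 2-fold lower, with 0 higher.

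A smaller group was low in B10301 alone. IAA8, of the Aux/IAA repressors of auxin response, was at 8.01 in the control, at 7.47 in B10201 and at 5.58 in B10301, a difference of -1.89. The phosphate transporter OsPht1;8 (x_at) was at 10.91, 10.50 and 9.19, and the metal transporter Nramp1 at 7.73, 7.68 and 6.45. In these 3, B10201 was near the control. The germin-like GLP2 was lower in both lines, at 7.67 in the control, 6.61 in B10201 and the floor in B10301.

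The genes higher in B10301 were fewer, and of those with a symbol MT1B was furthest apart. This metallothionein, a protein that binds metal ions, was at 7.84 in the control, at 5.70 in B10201 and at 8.08 in B10301, 5.23-fold higher in B10301, with B10201 the low array. The other 5 metallothioneins measured differed by -0.24 to 0.50 between the lines. LAC4, whose symbol stands for a laccase, an oxidase that can polymerise lignin precursors, went the other way about: the control was at 7.21, B10201 at 8.41 and B10301 at 10.51, so both lines were above the control and B10301 by more. EXPB2, a beta-expansin and so one of the proteins known for loosening walls of growing cells, lay at the floor on the control array, at 8.95 in B10201 and at 10.10 in B10301.

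Hormone genes among those higher in B10301 were dim. CKX11, a cytokinin oxidase that degrades cytokinin, was at 7.81 in the control, at 5.71 in B10201 and at 7.14 in B10301. The Aux/IAA gene IAA30 was at 7.19, 6.45 and 7.98, and SLRL1, a relative of the gibberellin repressor SLR1, at 5.98, 5.62 and 6.83, with the control between the lines in both. TAC1, a gene of tiller angle, was at 7.89, 7.56 and 8.84, which put B10301 highest by 1.29 over B10201. The potassium transporter HAK12 was at 7.90, 6.46 and 7.77, so B10201 was the low array.

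The remaining genes with a symbol in that ranking were RIBA3, of riboflavin synthesis, PXG, CPDK2, also listed as PPDK2 and measured by an x_at probe set, the crossover gene HEI10 and the homeodomain gene HOX7. They were 2.30-fold (HOX7) to 3.04-fold (RIBA3) higher in B10301. RIBA3 and HEI10 were at the floor in B10201, so their differences are bounds, and RIBA3 depended on the probe set, since another one inside a displaced stretch differed by -0.07 once moved back.

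Among genes known only by locus number the gaps were as wide. LOC4342395 was at a log2 signal of 14.26 in the control, at 7.48 in B10201 and at 13.16 in B10301, 51.2-fold higher in B10301, and was the widest gap in that direction. LOC4343812 followed at 8.30, 5.57 and 9.20. In both, B10201 was the low array. Also high-ranking were LOC4332506 and LOC4334399, at the floor in B10201 and at 8.09 and 7.83 in B10301, LOC4352127 (7.04, 5.54 and 7.71) and LOC4346676, measured by an s_at probe set, at the floor in the control, at 6.24 in B10201 and at 8.37 in B10301.

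On the other side LOC4325662 (x_at probe set) had log2 signals of 7.89 in the control, at 13.39 in B10201 and at 7.89 in B10301. LOC4325751 and LOC4345860 were at the floor in B10301 and at 10.67 and 9.73 in B10201, which makes them at least 37.2-fold and 19.4-fold lower in B10301. LOC4326920 and LOC4350213 were at the floor in both other arrays and at 10.39 and 9.89 in B10201. B10201 was the high array in each of these 5.

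Several lists held no gene apart outside the displaced stretches. Of 38 lists with measured members, 15 held 0 genes at least 2-fold apart, 15 held such genes only among those lower in B10301, 6 only among those higher and 2 in both directions. Over the 613 genes on any list 36 were lower and 8 higher. Among the 1684 measured genes with a symbol, from which the lists draw, 58 were lower (3.44%) and 17 higher (1.01%). Over all measured genes 2.81% were lower and 1.27% higher. The lists were chosen with earlier results of these data known, so these counts are a description only. The lists with 0 apart included 37 genes of trehalose, starch and sucrose (median 0.08), 30 tubulins and kinesins (0.11), 29 cell cycle genes (-0.10), 19 ribosomal proteins (-0.04), 14 aquaporins (0.08), 12 small heat shock proteins (0.12), 12 phytoalexin genes (-0.12) and 10 genes of nitrogen assimilation (0.17). So did those of NAC factors (-0.21), flowering regulators (-0.11), ethylene (0.14), flavonoid synthesis (0.25) and chlorophyll breakdown (0.05), with 2 to 8 genes each. The flowering list did not hold AGL10, also listed as MADS14, or MADS4, which are among the floral markers above. AGL10 was 2.86-fold lower in B10301 on its leading probe set (x_at), with neither line 2-fold from the control. On its further probe set both lines lay at the floor. MADS4 was at least 2.18-fold higher in B10301, with B10201 at the floor.

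Clock and photosynthesis genes, which follow the time of day, were also among the lists with 0 genes apart outside the displaced stretches. Inside them the photosynthesis gene CAB2R, moved back, was 2.34-fold higher in B10301. OsPRR1, a pseudo-response regulator of the evening, was at 11.74 in the control, at 11.88 in B10201 and at 11.92 in B10301. OsPCL1 was at 15.29, 15.25 and 15.30, and DTH7 at 12.72, 13.17 and 13.11. CCA1, a morning factor, differed most, at 7.12, 8.26 and 7.73. The 5 photosynthesis genes measured were each higher in B10301, by 0.09 to 0.70, with OsrcaA1, Rubisco activase, at 15.40, 15.57 and 15.93.

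Lists with 1 gene apart outside the displaced stretches included 19 cellulose synthases and related genes. Of these CSLC9 was at 6.19 in the control, at 7.71 in B10201 and at 6.40 in B10301. Also among such lists were 21 large heat shock chaperones and heat stress factors (HSF23 at 10.16, 10.23 and 9.16), and 8 chitinases and pathogenesis-related proteins (CH16 at 8.17, 8.83 and 7.74). The lists of 6 phenylpropanoid genes (4CL-3 at 9.23, 8.43 and 9.56) and of 3 protease inhibitors (OSE727A, measured by an s_at probe set, at 10.93, 10.26 and 11.37) had theirs higher in B10301. The medians of these 5 lists ran from -0.01 to 0.11. The 8 laccases and peroxidases held LAC4 above and APX5 (at the floor, 7.03 and 5.91) below, with a median of 0.18. The medians of the auxin, cytokinin, gibberellin, iron and zinc, phosphate, expansin, germin-like and metallothionein lists ran from -0.09 to 0.12. The list of other ethylene response factors repeated the DREB genes and added EREBP-1 (12.45, 12.89 and 12.79), AP2-1 and AP2-5, which differed by -0.09, 0.15 and 0.52.

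**Figure D3:**
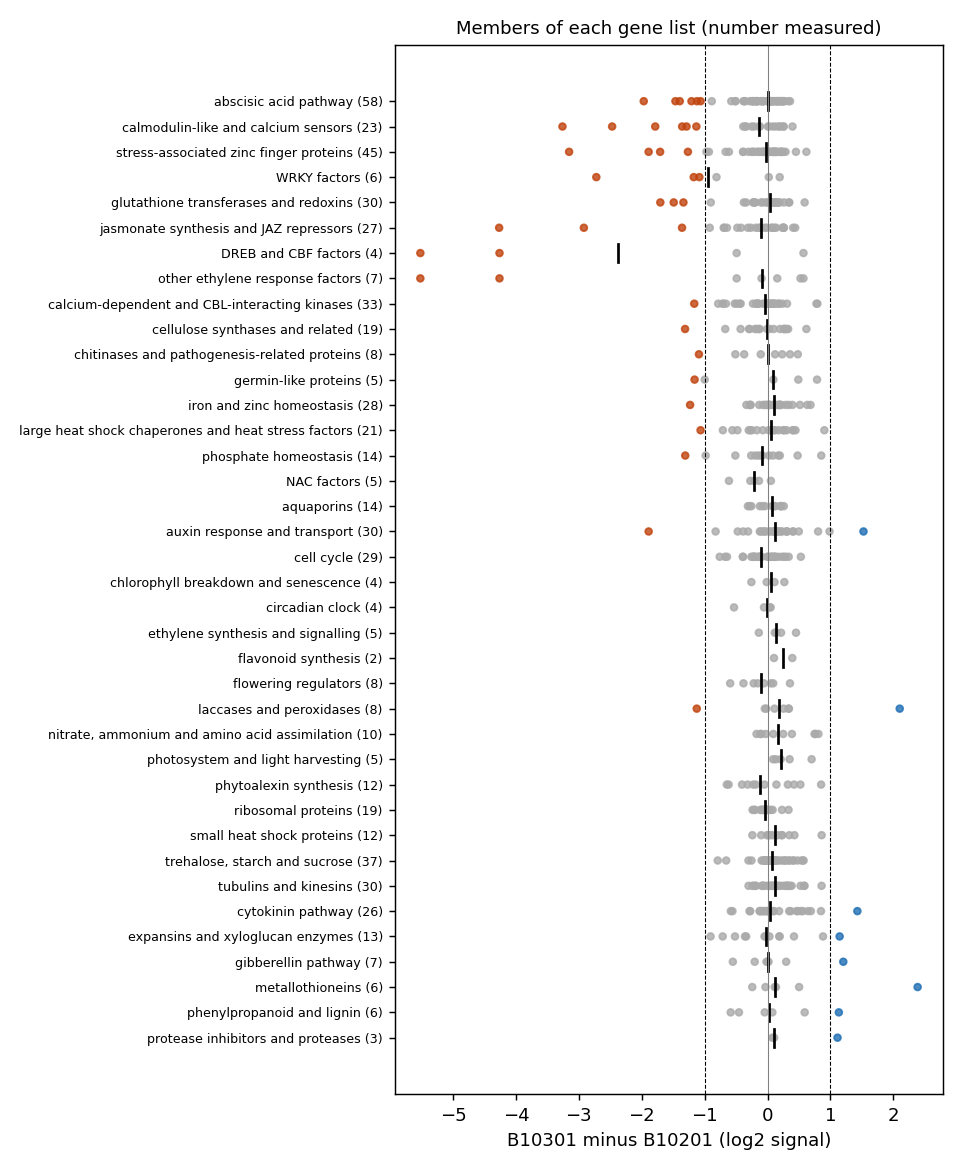
Log2 difference B10301 minus B10201 (x axis) for each measured member of 38 gene lists, with the number measured in brackets, a black bar at the median and dashed lines at 2-fold. Points past 2-fold lie mostly to the left, in the calcium sensor, zinc finger, JAZ, DREB, WRKY and abscisic acid lists, while most medians stay near 0.

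Along the genome the genes apart were found on all 12 chromosomes. The share of measured genes at least 2-fold lower in B10301 was highest on chromosome 1, at 79 of 1862 genes or 4.24% (95% Wilson interval 3.42 to 5.26), and lowest on chromosome 8, at 11 of 742 or 1.48% (0.83 to 2.63). The share higher in B10301 ran from 0.756% (0.367 to 1.55) on chromosome 6 to 2.52% (1.53 to 4.11) on chromosome 10. The intervals cover counting error over genes only, and neighbouring genes are not independent. In 21 places neighbouring measured genes were apart in the same direction, 16 of them lower in B10301, with 43 of the 485 genes in all and at most 3 in a row. The run of 3 was on chromosome 1, with LOC4326918 (6.53 in the control, 6.55 in B10201 and the floor in B10301), LOC4326919 (the floor, 9.46 and 6.51) and LOC4326920. JAZ13 and JAZ12 on chromosome 10 were a pair of this kind, as was ISAP1 with LOC4347418 on chromosome 9.

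The displaced stretches held further members of the same families, some lower and some higher in B10301. With the B10301 values moved back by 1 row and the floor at 5.50, 2535 genes not measured elsewhere could be set between the lines, 83 lower in B10301 (3.27%) and 52 higher (2.05%). For 47 of the 83 lower genes and 15 of the 52 higher ones, B10201 alone departed from the control. The control and B10201 columns were not displaced, so the distance of B10201 from the control in these genes does not rest on the move.

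The DREB1 and JAZ genes of the stretches again had B10201 as the high array. DREB1B was at 6.63 in the control, at 12.17 in B10201 and at 5.95 in B10301, a difference of -6.22, wider than any measured outside the stretches. DREB1E was at the floor in both other arrays and at 9.29 in B10201, so it was kept only through B10201. JAZ9 was at 6.57, 10.97 and 7.56. DREB2B was at 9.18, 9.14 and 9.15, with a difference of 0.02 between the lines.

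B10201 was also the highest array for 2 regulators and a sugar enzyme. NAC067 was at 9.93, 12.13 and 10.13, OsTPP1, a trehalose phosphate phosphatase, at 11.06, 13.05 and 11.37, and BHLH148, a factor linked to jasmonate signalling, at 11.01, 11.88 and 10.24. B10301 was above the control in NAC067 and OsTPP1 and below it in BHLH148, where neither line was 2-fold from the control. These 6 were all the genes with a symbol at least 2-fold lower in B10301 there, while 10 were higher. Among the latter the light-harvesting gene CAB2R was at 15.57 in the control, at 14.10 in B10201 and at 15.33 in B10301, and the plasma membrane aquaporin OsPIP1;3 at 9.20, 7.93 and 9.89, with B10201 the low array in both. The beta-expansin EXPB7 was at 6.60, 6.90 and 8.80, high in B10301 alone. So was the calcium-dependent kinase CPK23, at 7.49, 8.17 and 9.33. CSLE1 of the cellulose synthase list (7.59, 6.43 and 7.84) and EXLA3 of the expansin list (9.14, 7.52 and 8.68) had B10201 as the low array. KIN5A of the tubulin and kinesin list (6.39, 6.10 and 7.48) was high in B10301 alone. NAR2.2 of the nitrogen assimilation list was at 6.00, 5.72 and 6.92, with neither line 2-fold from the control. The clock genes GI (14.77, 14.96 and 15.03) and OsPRR73 (13.56, 13.61 and 13.69) differed by 0.07 and 0.08 between the lines.

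**Figure D4:**
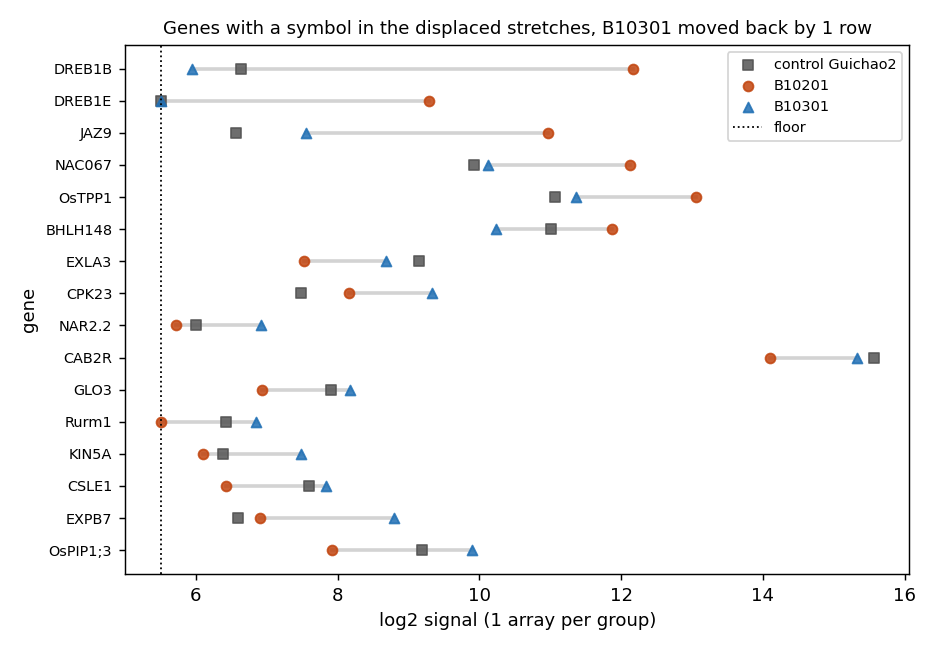
Log2 signal (x axis) on the 3 arrays for the 16 genes with a symbol at least 2-fold apart inside the displaced stretches, after the B10301 values were moved back by 1 row. DREB1B, DREB1E, JAZ9, NAC067 and OsTPP1 have B10201 to the right of both other arrays, and CAB2R and OsPIP1;3 have it to the left.

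The threshold divided genes of like difference. Just inside it were LOC4334791 and LOC4333626 among genes lower in B10301 and LOC4337884 (11.20 in the control, at 11.63 in B10201 and at 12.64 in B10301) and LOC4338360 among those higher. Just outside it were FH6 (6.90, 6.98 and 5.98) and GER6 (9.32, 8.07 and 7.08) on the lower side and LOC4349292 and LOC4333501 on the higher.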

How the data were processed

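The deposited table holds log2 signals of 57194 probe sets on 3 arrays, computed by the authors; the submitters' processing notes name MAS5, while its version, scaling target and detection calls are not given in the sources used here. The trimmed means of linear signal were 460.0, 459 and 460.0 (control, B10201, B10301), and no further normalization was applied. A path search over offsets of up to 3 rows found the displaced stretches of B10301 and 0 in the other columns; 7785 probe sets (13.6%) were left out and 49409 analysed. Probe sets whose mean log2 signal over the 3 arrays was above the floor were kept (22772). Precision is limited by the number of arrays. The search and the 2-fold rule were tested on simulated columns.

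The platform annotation gave 18013 probe sets with 1 gene, 81 with several and 31315 with none. Symbols came from it and from the gene table of assembly ASM3414082v1, used for names, aliases and gene order only; all 11900 measured genes were found there. The probe set with the highest mean stood for a gene. Suffixes x_at and s_at mark possible cross-hybridisation (22.2% of those kept, 58 of the 485 genes). Control probe sets, planned as a sign of RNA quality, were not analysed here.

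Named were, per direction, the 12 genes with a symbol and the 8 of any name furthest apart, up to 4 genes per list at least 2-fold apart and the member nearest 0, the 2 genes on each side of the threshold, and genes that departed from the control in opposite directions. The genes and lists were chosen with earlier results of these data known. Of 40 lists of symbol patterns, 1 had 0 members and 1, for resistance proteins, matched mostly other families, so both were left out. Python 3.11.15, numpy 2.4.6, scipy 1.17.1, pandas 2.3.3 and matplotlib 3.10.9 were used.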

Additional observations from a re-analysis of the deposited data

Results flagged for a closer look

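With 1 array a group, no difference between the lines' departures from the control was tested. Of the 22772 probe sets kept, 13 departed from it at least 2-fold in opposite directions in the lines, and 7 of these have 1 gene. B10201 was above the control and B10301 below it for the probe sets of CDKE-1 (7.26 in the control, at 9.72 in B10201 and at 6.01 in B10301, a difference between the lines of -3.70), EL2 (7.32, 8.78 and 5.56, -3.22), LOC4338926 (7.97, 9.88 and 6.87, -3.01), LOC4341688 (8.47, 9.58 and 6.78, -2.80), LOC4325959 (6.91, 8.48 and 5.81, -2.67) and LOC4325516 (7.62, 8.73 and 6.57, -2.16). LOC4334399 was the reverse, at 6.78 in the control, the floor in B10201 and 7.83 in B10301, a difference of 2.38. EL2, a rice gene known as an inhibitor of cyclin-dependent kinases, has a brighter probe set at 10.05, 11.51 and 9.65, on which B10301 was within 2-fold of the control, and CDKE-1 and LOC4341688 have brighter probe sets on which the lines did not oppose each other in this way.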

How the results depend on the processing

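No paired analysis was possible because each group has 1 array and the labels give no replicate numbers. The main counts were 553 probe sets higher and 819 lower in B10301, with B10201 alone departing for 527, B10301 alone for 320, both the same way for 92, oppositely for 13 and neither for 420, and 151 genes higher and 334 lower. Centring, quantile normalization, moving displaced values back, leaving out x_at and s_at probe sets, keeping probe sets with a line above the floor, and averaging a gene's probe sets left these counts within 1.5 times. The other settings are given in the same order. A floor at the 25th percentile gave 4736, 5317, 3826, 3754, 892, 498, 1083, 653 and 903. A floor at the 75th percentile gave 35, 161, 112, 23, 12, 0, 49, 18 and 115. No floor and no filter gave 8337, 8925, 5473, 5437, 3399, 1585, 1368, 921 and 1183. All values as deposited gave 1950, 2606, 575, 3140, 212, 96, 533, 930 and 1611, displaced rows included. A threshold of 4-fold, also from the control, gave 27, 118, 95, 9, 4, 0 and 37 probe sets. Probe sets above the floor on all 3 arrays, an alternative chosen after seeing the data, gave 296, 484, 320, 136, 55, 7 and 262, with 98 genes higher and 253 lower. More probe sets were lower than higher in B10301 in each setting, and B10201 alone departed more often than B10301 alone except with all values as deposited. The latter 2 counts were nearly equal with the floor at the 25th percentile (3826 and 3754) and with no floor (5473 and 5437). Of 636 values of 68 named genes at least 2-fold apart, over 10 settings, 634 kept their sign and 620 stayed at least 2-fold. A gene that was not kept in a setting gave no value there and is not counted. The reversals were RIBA3 with displaced values moved back (-0.071) and as deposited (-5.08), where a brighter probe set inside a stretch stood for the gene. A floor at the 75th percentile left DREB1G, CBF3 and other named genes of low mean signal with no value. Signals near the floor limit the counts, which a lower floor raised.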
